A study of Mus musculus with 24 samples.

Results

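The genes described here are 32 genes of fatty acid oxidation and targets of the nuclear receptor PPAR-alpha, chosen by name as a pathway and found under their symbols among the 24015 genes of the count table. All 32 were in the table, and all 32 passed the filter on low counts in each comparison. They are the enzymes that activate fatty acids and carry them into mitochondria (4 genes), the mitochondrial spiral of beta-oxidation (9), its peroxisomal counterpart (5), 1 ketone body enzyme, acyl-CoA thioesterases (4), the omega hydroxylases of the Cyp4a family (4), and 5 genes of uptake, binding, storage and fuel choice. The list is a selection, made with earlier results of these data known. Other genes of the same pathways are given later, from separate lists.

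Liver RNA came from female B6C3F1 mice, 5 to 6 weeks old on purchase per the labels, which were gavaged over 21 days with furan in corn oil at 8 mg/kg of body weight or with corn oil only, and were killed 4 h after the final dose. Every liver was split into a snap-frozen piece, a piece fixed in formalin for 18 h and a piece fixed for 3 wk, the fixed pieces being kept in paraffin (FFPE). The frozen comparison rests on 3 control animals (02, 04 and 06) and 3 furan animals (41, 43 and 44), and each FFPE comparison on 4 (02, 03, 04 and 06) against 4 (41, 42, 43 and 44). Frozen RNA was taken from a column kit and FFPE RNA from sections with another kit. The labels give an RNA integrity number from 8.9 upward for frozen RNA and of 1.3 to 2.4 for FFPE RNA. Fixation, kit, amount of tissue and RNA integrity therefore cannot be told apart. Feed was available at all times, per the labels, and how much each animal ate was not analysed here.

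Beta-oxidation shortens an acyl-CoA by a repeated cycle of dehydrogenation, hydration, oxidation and thiolysis. Mitochondria take the common chain lengths after the carnitine shuttle, and peroxisomes shorten very long and branched chains. In liver the acetyl-CoA made this way feeds ketone bodies during fasting. PPAR-alpha, with its partner RXR, is the lipid-sensing factor that raises many of these genes when fatty acids reach the liver, by binding a direct repeat of the half-site AGGTCA spaced by 1 base, and the Cyp4a genes and Acaa1b are among its classical rodent targets. Furan injures the liver after cytochrome P450 enzymes turn it into a reactive dialdehyde.

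To compare genes with each other, levels were set per length as counts-per-million (CPM) divided by the exon length in kilobases (RPKM) in the 3 frozen control livers. Exon length was the union of all annotated exons of a gene, which can be longer than any 1 transcript. It was 10483 nucleotides for Acsl1 and 6595 for Hadhb, against 3897 and 2048 in their longest protein-coding transcripts. The order of genes given below depends on the length used. Fabp1, the fatty acid binding protein of the hepatocyte cytosol, stood highest at 2819 ± 592 RPKM (SD, n = 3). Acaa2, the last enzyme of the mitochondrial spiral, followed at 570.2 ± 51.1 RPKM, and Acaa1b, a peroxisomal thiolase, at 454 ± 37.1 RPKM. The ranges of those neighbours did not overlap. Cyp4a14 and Cyp4a10 came next on this scale, at 252 ± 52.3 and 223 ± 39.2 RPKM, and differed by less than their spread. At the other end stood Pdk4, a kinase that shuts off pyruvate dehydrogenase and so spares glucose, at 2.70 ± 0.977 RPKM. The trifunctional protein's beta subunit Hadhb was at 3.94 ± 0.219 RPKM against 60.1 ± 3.75 RPKM for its alpha partner Hadha, with which it is joined in 1 enzyme. Of the 50-nucleotide words in the longest protein-coding Hadhb transcript of GENCODE, 62.4% occur in another annotated gene, nearly all in the gene model Gm13910. For this reason, and because its exon union is long, the low level of Hadhb is uncertain.

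**Figure D1:**
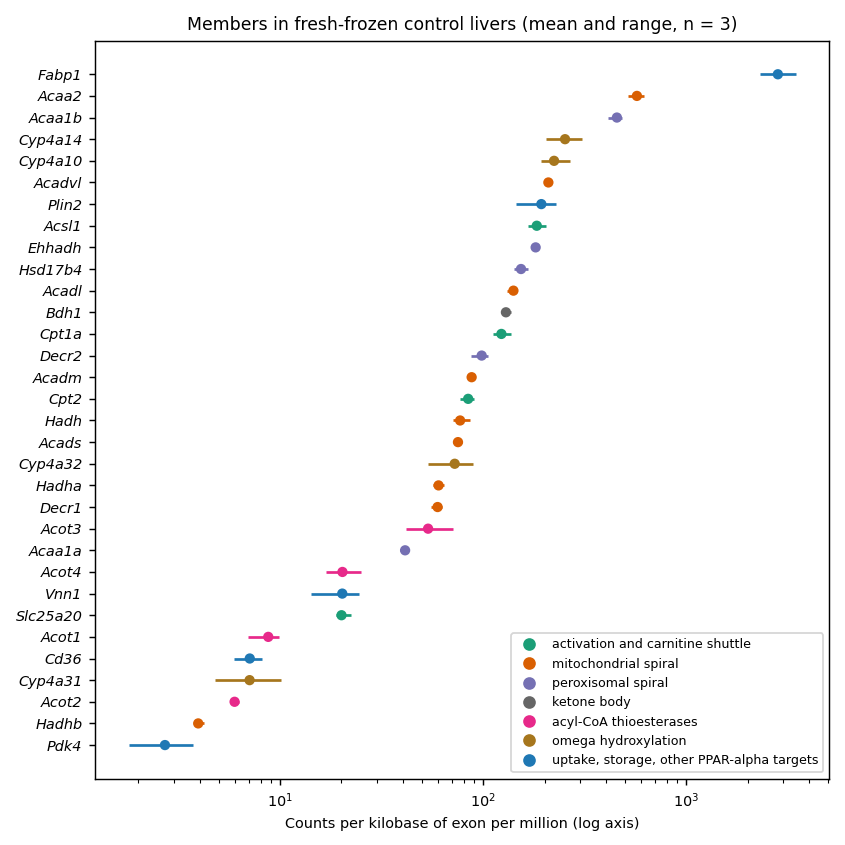
Level per length of the 32 genes in frozen control livers: the x axis is RPKM on a log scale, the points are means of 3 libraries, the lines run from the lowest to the highest library and the colours are the roles. Fabp1 stands at 2819 and Pdk4 at 2.70, with the spiral enzymes in between.

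The region just before the transcription start of some members is printed here, as the stretch in which a repeat of the kind bound by PPAR-alpha and RXR can be looked for. The sequences are the 250 bases upstream of the RefSeq start (GRCm38.p6), 5′ to 3′ on the strand of the gene. Capitals mark the best match to AGGTCANAGGTCA on either strand with at most 2 mismatches, where there is one. Fabp1, chr6:71199629-71199878 on the plus strand, is shown because it is the most abundant member and holds the closest match. Acaa1a (chr9:119341044-119341293, plus strand) and Acaa1b (chr9:119157094-119157343, minus strand) are shown because both fell in furan FFPE 18 h pieces, and Pdk4 (chr6:5496279-5496528, minus strand) because it rose in furan frozen livers.
Fabp1: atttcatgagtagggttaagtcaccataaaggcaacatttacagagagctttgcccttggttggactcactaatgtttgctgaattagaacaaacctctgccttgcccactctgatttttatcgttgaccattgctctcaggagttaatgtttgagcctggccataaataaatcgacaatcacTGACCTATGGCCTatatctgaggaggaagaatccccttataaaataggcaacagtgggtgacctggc
Acaa1a: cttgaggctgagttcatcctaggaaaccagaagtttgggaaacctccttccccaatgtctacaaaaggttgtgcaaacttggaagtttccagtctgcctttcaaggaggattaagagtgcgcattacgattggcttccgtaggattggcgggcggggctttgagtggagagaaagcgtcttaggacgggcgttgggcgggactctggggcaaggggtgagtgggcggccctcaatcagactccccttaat
Acaa1b: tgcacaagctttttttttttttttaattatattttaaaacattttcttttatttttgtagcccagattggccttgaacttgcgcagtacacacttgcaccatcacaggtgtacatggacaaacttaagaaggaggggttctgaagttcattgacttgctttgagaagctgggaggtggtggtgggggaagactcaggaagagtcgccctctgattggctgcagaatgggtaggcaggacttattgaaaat
Pdk4: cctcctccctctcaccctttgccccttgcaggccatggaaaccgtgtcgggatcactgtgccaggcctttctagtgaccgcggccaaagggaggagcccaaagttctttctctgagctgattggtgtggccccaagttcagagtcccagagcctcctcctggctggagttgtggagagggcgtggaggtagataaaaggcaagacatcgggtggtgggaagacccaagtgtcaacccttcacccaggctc
The Fabp1 match lies 67 to 55 bases before the start, on the minus strand, and has 1 mismatch. Over a window of 300 bases, from 250 before to 50 after the start, 28 promoters of 25 of the 32 genes were found in the RefSeq table, and 5 of those 28 held a match with at most 2 mismatches: those of Fabp1, Acot4, Cd36, Plin2 and Slc25a20. Among all 32851 promoters of the table, 1268 (3.86%) held one, 182 (0.554%) one with at most 1 mismatch and 13 (0.0396%) an exact one. No such letters were found in this window for Acaa1a, Acaa1b or Pdk4. The 250 bases of Acaa1a and Acaa1b, 2 genes with closely similar messenger sequences, were identical at 137 of 216 aligned positions (63.4%).

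In the frozen livers, 4 of the 32 genes passed the test between furan and control (edgeR's quasi-likelihood test, Benjamini-Hochberg adjusted p under 0.05 over all genes tested): Pdk4 rose, and Acsl1, Decr2 and Acads fell. That share, 12.5%, stands beside 15.7% of all genes tested (8.21% higher and 7.47% lower). In FFPE 18 h pieces 6 genes fell and none rose: Acsl1, Acaa1a, Acaa1b, Decr2, Acot1 and Cyp4a32, or 18.8% of the members beside 8.39% of all genes (3.92% higher and 4.47% lower). In FFPE 3 wk pieces Acaa1b fell, 3.12% of the members beside 0.821% of all genes (0.298% higher and 0.522% lower). Most fold changes were small. The members' median log2 fold change was -0.17, -0.14 and -0.22 in the 3 kinds of piece, beside -0.01, -0.01 and 0.02 over all genes. Of the 32, 21 were below 0 and 11 above in each, while 48.5%, 48.1% and 51.4% of all genes tested were above 0. In the FFPE pieces of the 6 animals also used frozen, the members' median was -0.04 (18 h) and -0.20 (3 wk). With library totals that omit the ribosomal precursor Rn45s and no TMM scaling it was -0.09, -0.10 and -0.15.

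Counted without a test, control and furan libraries did not overlap for 12 genes in frozen livers (3 higher and 9 lower in furan), 6 in FFPE 18 h pieces (all lower) and 5 in FFPE 3 wk pieces (2 higher and 3 lower). Over all genes the shares without overlap were 37.4%, 15.7% and 8.81%, against 37.5%, 18.8% and 15.6% of the members. At an unadjusted p under 0.05 stood 12, 14 and 13 of the 32 genes (37.5%, 43.8% and 40.6%), beside 32%, 23.4% and 10.9% of all genes tested. The numbers that passed moved with the fit. In 1 model of all 6 groups of libraries 1, 1 and 11 members passed, beside 138, 225 and 2030 of 14054 genes tested. DESeq2 called 6 in each kind of piece, beside 2336 of 14226, 1374 of 13512 and 369 of 13254 genes. In the FFPE pieces of the 6 animals that were also used frozen 1 and 0 passed, beside 594 of 12899 and 19 of 12148 genes.

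**Figure D2:**
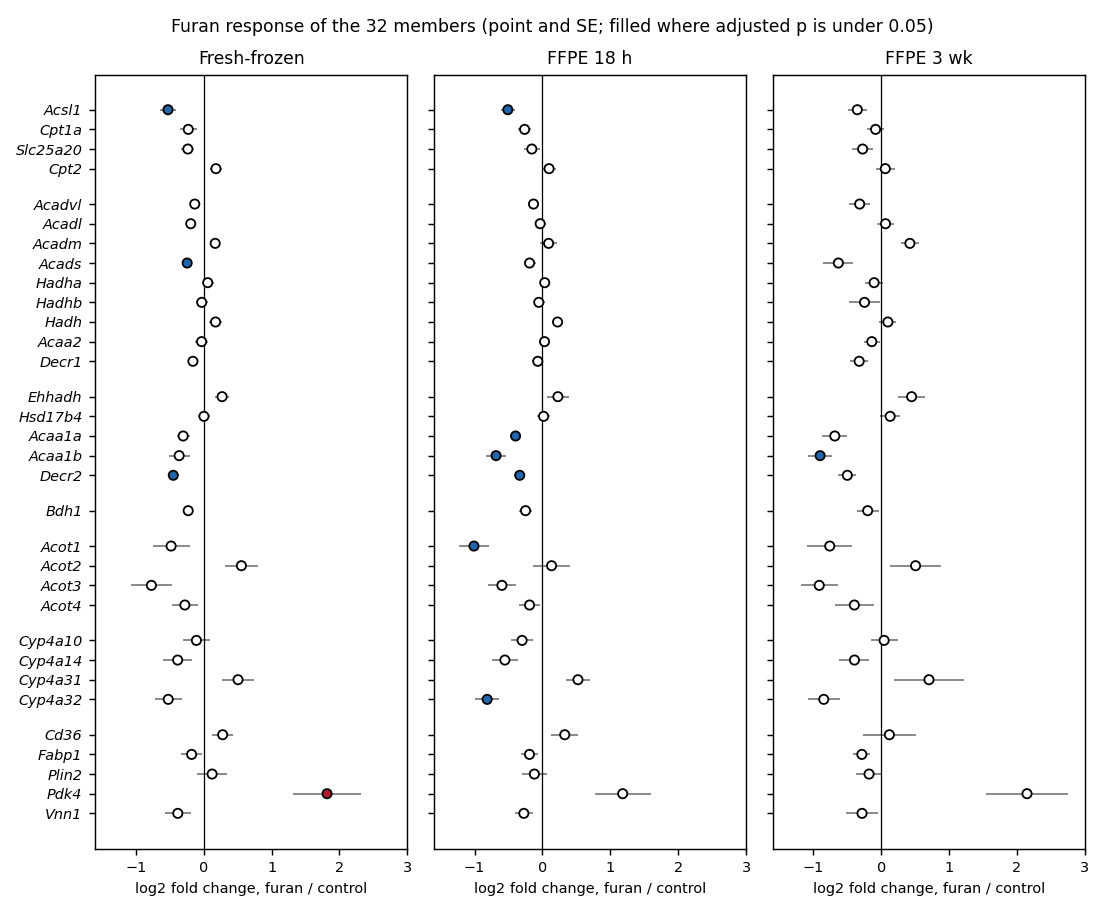
Fitted log2 fold change of furan over control for each of the 32 genes (x axis) in frozen, FFPE 18 h and FFPE 3 wk pieces, with bars of 1 SE and genes grouped by role from activation (top) to uptake and storage (bottom). Filled points passed an adjusted p of 0.05: blue fell (Acsl1, Decr2 and Acaa1b among them) and red rose (Pdk4 in frozen livers, 1.82).

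Fatty acids are first joined to coenzyme A, and Acsl1 is the main long-chain acyl-CoA synthetase of liver. In frozen livers it stood at 2127, 1902 and 1731 CPM in control animals 02, 04 and 06, and at 1537, 1253 and 1207 CPM in furan animals 41, 43 and 44. Every furan library lay below every control library, a log2 fold change of -0.53 ± 0.12 (SE; adjusted p = 0.0261). In FFPE 18 h pieces the values were 700.3, 739.6, 659 and 647 CPM in controls 02, 03, 04 and 06 and 591, 459, 439.6 and 439 CPM in furan animals 41, 42, 43 and 44, again with no overlap, and Acsl1 fell (-0.51 ± 0.10, adjusted p = 0.00721). FFPE 3 wk pieces gave 1585, 1474, 1429 and 1172 CPM in controls and 1444, 970.1, 897 and 1122 CPM in furan, where animal 41 lay among the controls (-0.35 ± 0.14, adjusted p = 0.357). The frozen call was lost without control 02 (adjusted p = 0.0679), control 04 (0.0613), furan 43 (0.103) or furan 44 (0.0947), while the FFPE 18 h call held without any 1 library.

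Cpt1a, the carnitine palmitoyltransferase that sets the rate of mitochondrial entry, was at 918, 851 and 1043 CPM in frozen controls and 935, 732 and 733 CPM in furan livers. Animals 43 and 44 lay below all controls and animal 41 among them. Its fold changes of -0.23 ± 0.12, -0.26 ± 0.10 and -0.08 ± 0.12 in frozen, FFPE 18 h and FFPE 3 wk pieces did not pass (adjusted p = 0.252, 0.112 and 0.914), although the FFPE 18 h value did without furan 41 (adjusted p = 0.0304). Neither the carnitine carrier Slc25a20 nor the inner-membrane transferase Cpt2 passed in any piece; their fold changes ran from -0.27 to -0.16 and from 0.06 to 0.18.

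The 9 genes of the mitochondrial spiral had median log2 fold changes of -0.03, -0.03 and -0.14, and 1 of them passed, in frozen livers only. That gene was Acads, the dehydrogenase of short chains, at 171, 162 and 178 CPM in controls and 149, 137 and 144 CPM in furan livers. The groups did not overlap, but the fall was small (-0.24 ± 0.07, adjusted p = 0.0472) and the call was lost when any 1 of the 6 libraries was left out (adjusted p from 0.0594 without control 04 to 0.153 without furan 43) and with no filter on low counts (0.0602). In FFPE pieces Acads had fold changes of -0.19 ± 0.09 and -0.63 ± 0.22 (adjusted p = 0.212 and 0.260).

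Acadm, the medium-chain dehydrogenase, went the other way, at 348, 333 and 346 CPM in frozen controls and 411, 357 and 386 CPM in furan livers. It did not overlap there or in FFPE 3 wk pieces (187, 201, 177 and 189.9 CPM against 290.4, 221, 225 and 276 CPM), but did not pass the test (log2 fold changes 0.17 ± 0.08, 0.09 ± 0.13 and 0.42 ± 0.14). Hadha, the trifunctional protein's alpha subunit, was at 555, 490.4 and 529 CPM in frozen controls and 599, 514 and 528 CPM in furan livers, with overlapping groups in every piece. For the other members of the spiral, Acadvl, Acadl, Hadhb, Hadh, Acaa2 and Decr1, the fold changes lay between -0.32 (Decr1 and Acadvl in FFPE 3 wk pieces) and 0.22 (Hadh in FFPE 18 h pieces). Of the Acadvl exons, 42.9% overlap the neighbouring gene Dvl2, and Hadhb shares words with Gm13910, so both values are uncertain.

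Of the 5 genes of the peroxisomal spiral, 1 fell in frozen livers (20%), 3 after fixation for 18 h (60%) and 1 after 3 wk (20%). Of all genes tested, 7.47%, 4.47% and 0.522% fell. Decr2, the dienoyl-CoA reductase that lets peroxisomes handle unsaturated chains, was at 281, 231 and 269 CPM in frozen controls and 195, 189 and 187 CPM in furan livers. The furan values lay close together and below every control (-0.45 ± 0.09, adjusted p = 0.0136); the call was lost without furan 43 (0.0539). FFPE 18 h pieces gave 180.4, 196, 170.1 and 178 CPM in controls and 156, 130.5, 139 and 149 CPM in furan, also without overlap (-0.34 ± 0.08, adjusted p = 0.0202). There the adjusted p rose to 0.0627 without control 03, 0.0566 without furan 42 and 0.0707 without furan 43. In FFPE 3 wk pieces Decr2 was at 315, 309.5, 284 and 255 CPM against 207, 176, 238 and 202 CPM, with no overlap but without passing (-0.50 ± 0.13, adjusted p = 0.107).

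Acaa1a and Acaa1b encode the peroxisomal thiolases that end each turn of the cycle. Acaa1b stood at 1313, 1273, 1289 and 1225 CPM in control and 1012, 529, 818 and 816 CPM in furan FFPE 18 h pieces. All furan libraries were lower, animal 42 by most, and Acaa1b fell (-0.68 ± 0.14, adjusted p = 0.0118). In FFPE 3 wk pieces it was at 1192, 1283, 1531 and 1360.5 CPM against 957, 442, 786 and 691 CPM, the same order of furan animals with 42 lowest and 41 highest, and it was the member that passed there (-0.90 ± 0.18, adjusted p = 0.0294). Frozen livers, which lack animal 42, gave 923, 944 and 808 CPM against 868, 567 and 646 CPM; animal 41 lay among the controls and the difference did not pass (-0.36 ± 0.15, adjusted p = 0.148), though it did without animal 41 (0.0307). The FFPE 18 h call held without any 1 library. The FFPE 3 wk call was lost without control 02 (adjusted p = 0.0678), control 03 (0.0688), control 04 (0.121), furan 42 (0.0545), furan 43 (0.0812) or furan 44 (0.138), the fold change staying between -1.08 and -0.72.

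Acaa1a was lower by less: 157, 147, 138 and 150.3 CPM in control and 129, 99.7, 109 and 113 CPM in furan FFPE 18 h pieces, where it fell (-0.40 ± 0.09, adjusted p = 0.0139; without furan 43, 0.0510). Its groups did not overlap in frozen livers (186, 172 and 187 CPM against 169, 133 and 139.7 CPM) or in FFPE 3 wk pieces (139, 139.7, 165 and 154 CPM against 107, 68.4, 118 and 79.9 CPM), but it passed in neither (-0.30 ± 0.10 and -0.68 ± 0.18, adjusted p = 0.0727 and 0.104). Of the 50-nucleotide words of Acaa1b, 46.2% occur in another gene, 35.5% in Acaa1a, so counts could be split between these genes. Their summed counts fell in FFPE 18 h pieces (-0.65 ± 0.14, adjusted p = 0.0104) and FFPE 3 wk pieces (-0.88 ± 0.17, adjusted p = 0.0291), and gave -0.35 ± 0.14 in frozen livers (adjusted p = 0.134), a check chosen after the values had been seen.

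The remaining peroxisomal members had values above 0. Ehhadh, the L-bifunctional enzyme, was at 544, 539.9 and 534 CPM in frozen controls and 683, 546 and 722 CPM in furan livers, every furan library being above every control. Its fold changes of 0.27 ± 0.11, 0.23 ± 0.16 and 0.45 ± 0.20 did not pass, except in frozen livers without furan 43 (adjusted p = 0.0429). Animals 41 and 44 held the higher Ehhadh values among furan libraries in all 3 kinds of piece, and in FFPE 18 h pieces 42 and 43 lay below every control (203, 109.9, 122 and 189 CPM against 129, 140.1, 133 and 131 CPM). Hsd17b4, the D-bifunctional enzyme, lay between 0.00 and 0.13 on the log2 scale and did not pass. Bdh1, which interconverts the ketone bodies acetoacetate and 3-hydroxybutyrate, was at 533, 495 and 477 CPM in frozen controls and 444, 409.7 and 431 CPM in furan livers; it did not overlap there but did not pass (-0.23 ± 0.08, adjusted p = 0.0817; FFPE pieces -0.25 ± 0.09 and -0.20 ± 0.16).

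**Figure D3:**
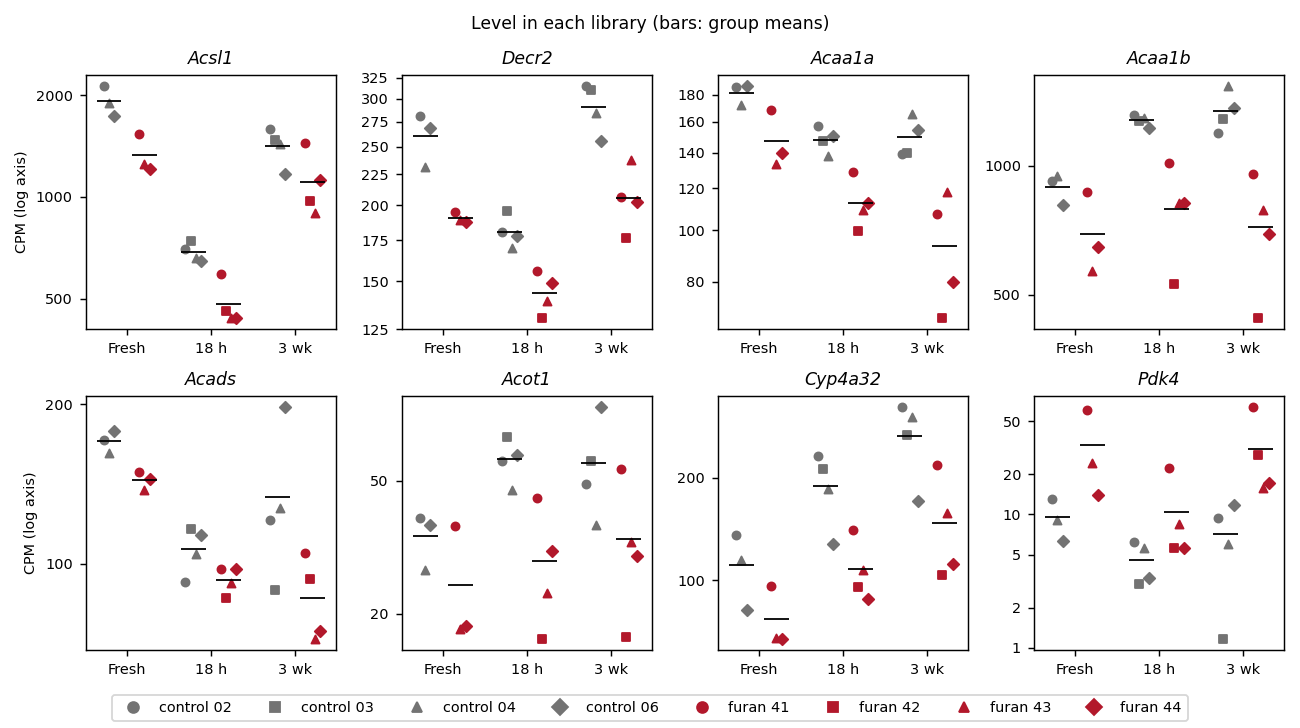
CPM (log axis) of the 8 members that passed the test in at least 1 kind of piece, in every library: grey control, red furan, with a marker shape for each animal and a bar at each group mean. Furan animal 41 is the highest furan library for Acaa1b in all 3 kinds of piece, and for Pdk4 it lies above every other library.

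Acyl-CoA thioesterases release the free fatty acid again. Acot1, the cytosolic enzyme and a strong PPAR-alpha target, was at 57.2, 67.8, 46.9 and 60.0 CPM in control and 44.5, 16.8, 23.1 and 30.9 CPM in furan FFPE 18 h pieces. The groups did not overlap, animal 42 was lowest and 41 highest, and Acot1 fell (-1.01 ± 0.23, adjusted p = 0.0154; without furan 43, 0.0570; with robust dispersions, 0.0819). In frozen livers it was at 38.6, 27.1 and 36.9 CPM against 36.7, 18.0 and 18.3 CPM, animal 41 lying among the controls and the other furan animals near 18 CPM (-0.48 ± 0.27, adjusted p = 0.268). FFPE 3 wk pieces gave 48.9, 57.3, 36.9 and 83.1 CPM against 54.1, 17.0, 32.9 and 29.7 CPM, which overlapped (-0.76 ± 0.33, adjusted p = 0.393).

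Acot2, its mitochondrial relative, had values of the opposite sign, at 12.5, 13.0 and 13.7 CPM in frozen controls and 28.0, 15.9 and 13.3 CPM in furan livers, animal 41 being highest in each kind of piece. It passed nowhere (0.55 ± 0.24, 0.13 ± 0.27 and 0.51 ± 0.37). Acot1 shares 23.7% of its words with Acot2. With the counts of both summed, the FFPE 18 h difference was -0.67 ± 0.23 and did not pass (adjusted p = 0.0999), so the Acot1 call holds for the counts as split in the table. The peroxisomal thioesterases Acot3 and Acot4 did not pass; Acot3 had fold changes of -0.77 ± 0.30, -0.60 ± 0.20 and -0.91 ± 0.27. Control 06 was the highest control for Acot3 in each kind of piece (243, 217 and 259.5 CPM) and furan 43 the lowest furan library (62.4, 68.3 and 60.0 CPM). Control 06 also held the highest control value of Acot4 in each kind of piece (166, 58.2 and 101 CPM).

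The Cyp4a enzymes hydroxylate fatty acids at the omega carbon and are the genes most used as a readout of PPAR-alpha in rodents. Cyp4a14 was at 800.0, 640.1 and 529 CPM in frozen controls and 584, 348 and 577 CPM in furan livers, animal 43 being lowest. Its fold changes of -0.38 ± 0.22, -0.55 ± 0.20 and -0.39 ± 0.22 did not pass (adjusted p = 0.266, 0.103 and 0.587; in FFPE 18 h pieces it passed without furan 41, 0.0283). Cyp4a10 was at 563, 444 and 403 CPM against 479.7, 307 and 522 CPM, overlapping in each kind of piece (-0.11 ± 0.20, -0.30 ± 0.16 and 0.04 ± 0.20).

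Cyp4a32 was the family member that passed, in FFPE 18 h pieces, at 232, 213, 185 and 128 CPM in controls and 140.5, 95.8, 107 and 88.2 CPM in furan. Furan 41 lay above control 06, so the groups overlapped (-0.82 ± 0.17, adjusted p = 0.0120); the call held without any 1 library but was lost with robust dispersions (0.0509). Frozen livers gave 136, 115 and 81.9 CPM against 96.0, 67.8 and 67.4 CPM (-0.52 ± 0.20, adjusted p = 0.112) and FFPE 3 wk pieces 322, 266, 302 and 172 CPM against 218, 104, 157 and 112 CPM (-0.85 ± 0.23, adjusted p = 0.121). Of its words 46.8% occur in other genes, 34.8% in Cyp4a10 and 25.7% in Cyp4a31. With the counts of Cyp4a10, Cyp4a31 and Cyp4a32 summed, the FFPE 18 h difference was -0.42 ± 0.15 (adjusted p = 0.106). Cyp4a31 had fold changes above 0 in all 3 kinds of piece (0.50 ± 0.24, 0.52 ± 0.18 and 0.70 ± 0.52), which did not pass except in frozen and FFPE 18 h pieces without control 02 (adjusted p = 0.0203 and 0.0167); that animal was the highest control for Cyp4a31 in each kind of piece.

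Pdk4 had the largest fold changes of the 32 genes, and the member that rose in frozen livers acts at the choice between glucose and fat. Frozen controls held 13.1, 9.09 and 6.28 CPM and furan livers 61.0, 24.4 and 13.9 CPM. All furan libraries were higher, animal 41 far above the others (1.82 ± 0.51, adjusted p = 0.0457). In FFPE 18 h pieces the values were 6.18, 3.00, 5.62 and 3.36 CPM in controls and 22.1, 5.57, 8.43 and 5.57 CPM in furan (1.18 ± 0.41, adjusted p = 0.102), and in FFPE 3 wk pieces 9.41, 1.17, 6.03 and 11.7 CPM and 63.7, 27.7, 15.7 and 17.3 CPM, with no overlap but without passing (2.15 ± 0.60, adjusted p = 0.126).

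The frozen Pdk4 call was not stable. It was lost without control 02 (adjusted p = 0.0641), control 04 (0.110), control 06 (0.0974), furan 43 (0.0853) or furan 41 (0.0965), when the fold change was 1.04. DESeq2 gave an adjusted p of 0.0553 and robust dispersions 0.143. Skeletal muscle and fat also express Pdk4. The summed level of 7 muscle markers was at most 0.630 CPM in frozen livers but reached 598 CPM in furan 42, 367 CPM in control 03 and 152 CPM in control 06 among FFPE 3 wk pieces. Of these, furan 42 was at 27.7, control 03 at 1.17 and control 06 at 11.7 CPM for Pdk4. The summed level of 7 fat cell markers was 17.1 to 17.7 CPM in frozen control and 13.3 to 16.2 CPM in frozen furan livers, with Lep at 0; Lipe, which liver also transcribes, made up most of it, at 11.1 to 14.6 CPM, and the fat cell hormone gene Adipoq was at most 0.0701 CPM. It was 21.8 to 24.4 CPM in control and 19.5 to 47.7 CPM in furan FFPE 18 h pieces, and 11.4 to 43.3 and 14.9 to 24.7 CPM in FFPE 3 wk pieces, where Adipoq, Plin1 and Retn were at 0. The part of these cells in the FFPE 3 wk values was not tested.

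The uptake, binding and storage genes did not pass. Fabp1 was at 1915, 1489.9 and 1272 CPM in frozen controls and 1542, 1279 and 1311 CPM in furan livers, overlapping (-0.18 ± 0.15; FFPE pieces -0.19 ± 0.13 and -0.29 ± 0.12). In FFPE 18 h pieces it passed without control 06 (adjusted p = 0.0449), the library with 37.3% of its counts on the ribosomal precursor Rn45s. Cd36, a fatty acid translocase, was at 21.1, 29.1 and 25.9 CPM against 36.4, 30.5 and 25.4 CPM, and Plin2, which coats lipid droplets, at 799.8, 727 and 506 CPM against 964, 659 and 590.2 CPM; both overlapped in every kind of piece. Vnn1, a pantetheinase regulated by PPAR-alpha, had fold changes of -0.38 ± 0.19, -0.27 ± 0.13 and -0.28 ± 0.23.

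The furan animals differed among themselves. Furan 41 had a median over the 32 genes of 0.01, 0.06 and 0.01 (log2 of its CPM over the control mean) in frozen, FFPE 18 h and FFPE 3 wk pieces. The other furan animals were lower: 43 at -0.25, -0.16 and -0.25, 44 at -0.19, -0.11 and -0.28, and 42, which has no frozen column, at -0.35 and -0.33 in the FFPE pieces. In FFPE 18 h pieces 42 was below the range of the 4 controls for 21 of the 32 genes and above it for 0, while 41 was below it for 6 and above it for 14. The corresponding frozen counts were 9 below and 10 above for 41, 19 and 5 for 43, and 15 and 5 for 44. The same counts over all genes were not made, so these do not set the members apart from other genes. The FFPE 18 h library of 42 had 16.5% of its counts on the ribosomal precursor Rn45s, against 7.76% to 9.84% in the other furan libraries there. The part of this in its values was not tested. By role, the medians of the Cyp4a genes were -0.07 and -0.02 in frozen pieces of 41 and 44 but -0.66 in 43, and -0.01 and -0.20 in FFPE 18 h pieces of 41 and 44 but -0.80 and -0.78 in 42 and 43. In FFPE 3 wk pieces they were 0.28 and 0.14 in 41 and 44 and -0.75 and -0.61 in 42 and 43. The median of the peroxisomal genes was below 0 in every furan library, -0.04 (41) to -0.45 (43) for frozen pieces, -0.20 (41) to -0.47 (42) after 18 h of fixation and -0.29 (43) to -0.72 (42) after 3 wk. Without furan 41, 10 members passed in FFPE 18 h pieces in place of 6, all lower, beside 855 of 13027 genes tested. Without furan 43 the number was 3, beside 664 of 12999 genes.

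**Figure D4:**
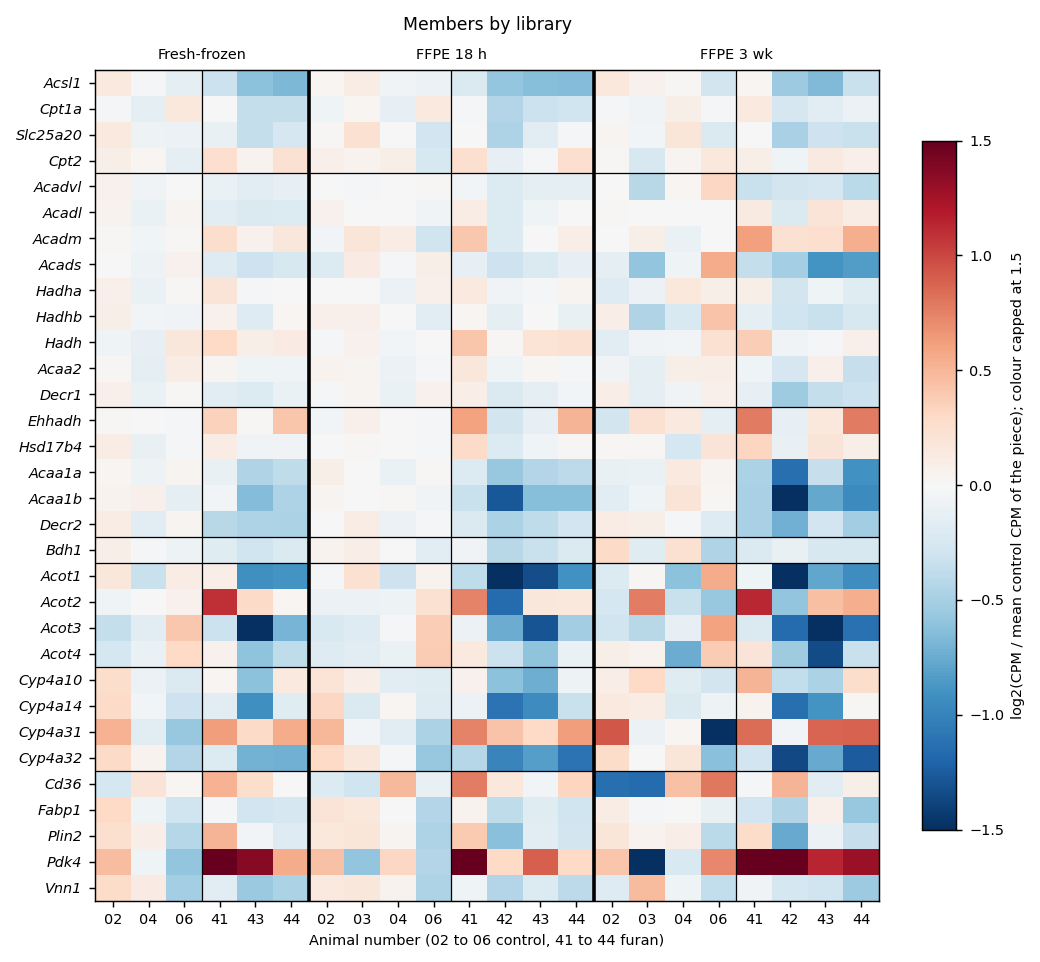
Each member (rows, grouped by role) in each library (columns, by animal number): colour is log2 of the CPM over the mean control CPM of that kind of piece, capped at 1.5. The furan 41 columns are paler or redder than those of 42, 43 and 44, whose medians lie between -0.35 and -0.11, and the Acaa1a, Acaa1b and Decr2 rows lie below the control mean in every furan library.

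The furan response of the members was compared between kinds of piece as an interaction of treatment and piece. No member differed by edgeR's quasi-likelihood test, between FFPE 18 h and frozen or between FFPE 3 wk and frozen, nor did any other gene (0% of the genes tested in both, with 455 and 590 genes at an unadjusted p under 0.05). None of the 32 genes was at an unadjusted p under 0.05 in either. DESeq2 called 0 members, beside 1 of 19320 genes for FFPE 18 h and 43 of 13356 genes for FFPE 3 wk minus frozen. With the animal as a replicate block 0 members passed, beside 2 of 13966 and 0 of 13540 genes. In that fit 5 and 6 members were at an unadjusted p under 0.05. The largest differences were imprecise: Pdk4 at -0.63 ± 0.72 and Acot1 at -0.52 ± 0.40 for FFPE 18 h minus frozen, and Acaa1b at -0.52 ± 0.28 and Pdk4 at 0.37 ± 0.90 for FFPE 3 wk minus frozen. These comparisons share animals, and a missed threshold does not show that the responses were equal.

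In control livers more members differed between kinds of piece than between furan and control, and so did a larger share of all genes. RNA integrity also goes with the kind of piece, and its part here was not tested. The main fits here took pieces of the same animals as independent libraries, without pairing. Between FFPE 18 h (4 libraries) and frozen pieces (3), 23 of the 32 genes (71.9%) differed, 10 higher and 13 lower. That stands beside 68.0% of all genes (34.2% higher and 33.8% lower). Fabp1 rose from 1344 ± 289 (SD, n = 3) to 8135 ± 1485 (SD, n = 4) CPM on the scale of that fit (2.60 ± 0.19, edgeR adjusted p = 1.63e-06). Acot1, Cyp4a32, Hadhb and Acaa1b were higher too (1.04 ± 0.16, 1.06 ± 0.22, 1.01 ± 0.10 and 0.80 ± 0.08). Ehhadh fell from 464 ± 7.09 (SD, n = 3) to 139.6 ± 4.85 (SD, n = 4) CPM (-1.73 ± 0.07), and Acot4, Acsl1, Cpt1a, Hsd17b4 and Acadm were lower (-1.31 ± 0.17, -1.20 ± 0.09, -1.14 ± 0.10, -1.09 ± 0.08 and -1.08 ± 0.11). The trifunctional subunit Hadha was lower (-0.30 ± 0.08) while its partner Hadhb, whose counts are uncertain, was higher.

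Between FFPE 3 wk and frozen pieces 18 members (56.2%) differed, 6 higher and 12 lower, beside 26.2% of all genes (13.2% higher and 13.0% lower). Cyp4a32 and Fabp1 were again higher (1.20 ± 0.24 and 1.13 ± 0.14), and Ehhadh, Hsd17b4, Cpt1a and Acadvl lower (-1.51 ± 0.14, -1.49 ± 0.13, -1.31 ± 0.10 and -1.23 ± 0.16). Acaa2 was higher in FFPE 18 h pieces (0.63 ± 0.09) and lower in FFPE 3 wk pieces (-0.35 ± 0.11, adjusted p = 0.0381), the latter lost with the animal as a replicate block. The difference was negatively related to exon length, as a description over genes of the same libraries: Spearman's rho was -0.41 and -0.29 over the 32 members (-0.35 and -0.22 without Fabp1) and -0.50 and -0.38 over 12950 and 12079 genes. Each furan comparison above is within 1 kind of piece.

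**Figure D5:**
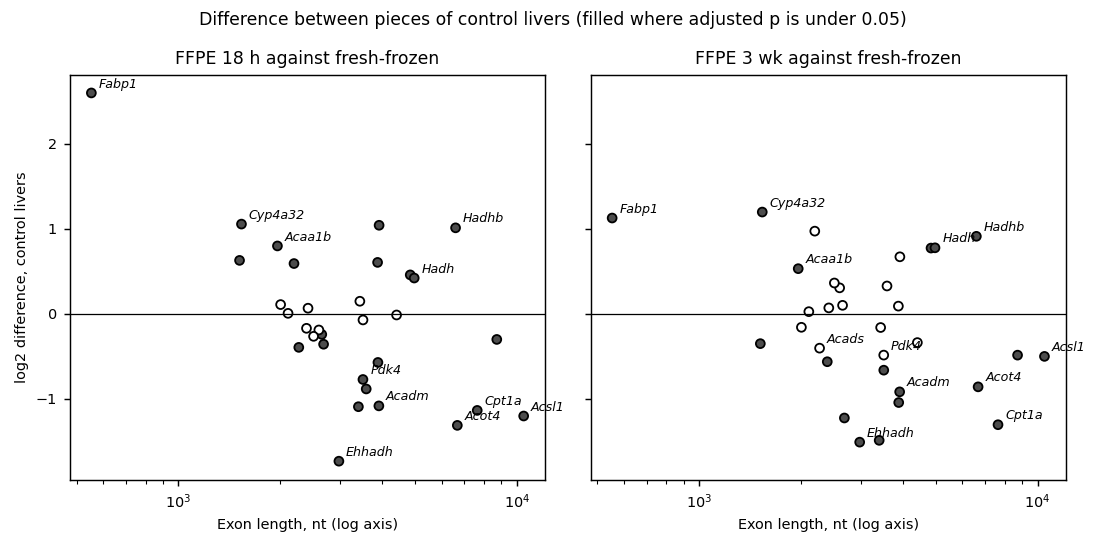
Difference between FFPE and frozen pieces of control livers (log2, y axis) against exon length in nucleotides (log x axis) for the 32 members; filled points passed an adjusted p of 0.05. Fabp1, the shortest, is highest in FFPE 18 h pieces (2.60), and Ehhadh is lowest in both panels (-1.73 and -1.51).

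Other genes of the pathway were taken from lists of genes by function. Of 15 regulators, 1 rose and 2 fell in frozen livers, 2 fell in FFPE 18 h and 0 passed in FFPE 3 wk pieces by edgeR (3 at an unadjusted p under 0.05). Ppara itself was at 671 ± 64.4 (SD, n = 3) CPM in frozen controls and 627 ± 111 (SD, n = 3) CPM in furan livers (-0.10 ± 0.14, adjusted p = 0.672) and did not pass in FFPE pieces (-0.16 ± 0.13 and -0.16 ± 0.15). The coactivator Ppargc1b fell in frozen (-0.50 ± 0.10, adjusted p = 0.0159) and FFPE 18 h pieces (-0.88 ± 0.17, adjusted p = 0.00589), but stood at 0.70 ± 0.50 in FFPE 3 wk pieces (adjusted p = 0.706); its frozen call was lost without furan 43 (0.0654). Rxra, which encodes the partner receptor, fell in frozen livers (-0.31 ± 0.08, adjusted p = 0.0351), and the deacetylase genes Sirt1 (frozen, 0.33 ± 0.08) and Sirt3 (FFPE 18 h, -0.36 ± 0.08) rose and fell. The Rxra call was lost without control 02, control 06, furan 41, furan 43 or furan 44 (adjusted p up to 0.113), and the Sirt1 call without any 1 library but furan 44 (up to 0.101).

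Among 22 further genes of beta-oxidation and electron transfer, 1 rose and 2 fell in frozen livers, and 1 rose and 1 fell in FFPE 18 h pieces. The riser was Acox2, the peroxisomal oxidase of branched chains and bile acid precursors, in both (0.38 ± 0.09 and 0.40 ± 0.10). Those that fell were Pecr and Mlycd in frozen livers (-0.28 ± 0.07 and -0.30 ± 0.08) and Acad10 in FFPE 18 h pieces (-0.39 ± 0.11). Each of these calls was lost without at least 4 of the libraries taken 1 at a time: adjusted p reached 0.0662 (Acox2, frozen, without control 04), 0.0746 (Acox2, FFPE 18 h, without furan 43), 0.101 and 0.130 (Pecr and Mlycd, without furan 43) and 0.102 (Acad10, without furan 44). None of 6 ketone body genes passed in any piece by edgeR, and 1 of the 6 was at an unadjusted p under 0.05 in each piece.

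Of 16 tested genes of fatty acid transport and activation, 2 rose and 4 fell in frozen livers; of 15 in FFPE 18 h pieces 1 rose and 2 fell, and of 14 in FFPE 3 wk pieces 1 rose. Acsl4, a synthetase preferring arachidonate, rose in all 3 (0.53 ± 0.13, 0.70 ± 0.09 and 0.90 ± 0.18; adjusted p = 0.0281, 6.75e-04 and 0.0294), opposite to Acsl1; its frozen call was lost without control 02 or 04 or furan 43 or 44 (adjusted p up to 0.0735) and its FFPE 3 wk call without control 03 or 04 or any 1 furan library (up to 0.149). Fabp2 fell in frozen and FFPE 18 h pieces (-0.76 ± 0.15 and -0.71 ± 0.13), and the transporter genes Slc27a1 and Abcd2 in frozen (-0.55 ± 0.14 and -0.26 ± 0.07) and Slc27a2 in FFPE 18 h pieces (-0.45 ± 0.10). The Fabp2 call in frozen livers was lost without furan 43 (adjusted p = 0.0629) and that of Slc27a2 without furan 44 (0.0533); those of Slc27a1 and Abcd2 were lost without 5 of the 6 libraries, with adjusted p up to 0.111 and 0.121 without furan 43. Of 23 other PPAR-alpha targets tested, 3 rose and 2 fell in frozen and 3 rose and 3 fell in FFPE 18 h pieces, and of 22 in FFPE 3 wk pieces 1 fell.

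Within that last list the directions were mixed. The hepatic hormone Fgf21 rose from 2.12 ± 0.837 (SD, n = 3) to 7.84 ± 4.33 (SD, n = 3) CPM in frozen livers (1.91 ± 0.41, adjusted p = 0.0197) and rose in FFPE 18 h pieces (1.64 ± 0.34, adjusted p = 0.0100), and the lipid droplet genes Hilpda and Cidec rose in frozen (1.05 ± 0.22 and 1.06 ± 0.22) and Fitm1 in FFPE 18 h pieces (1.43 ± 0.24). Cyp4f15, an omega hydroxylase of another family, fell in all 3 kinds of piece (-0.65 ± 0.08, -0.72 ± 0.07 and -0.86 ± 0.15; adjusted p = 0.00372, 6.14e-05 and 0.0215), from 199 ± 15.3 (SD, n = 3) to 127 ± 8.41 (SD, n = 3) CPM in frozen livers. The frozen calls were lost without control 04 for Fgf21 (adjusted p = 0.0587), without control 02 for Cidec (0.0511) and without control 02, furan 41 or furan 43 for Hilpda (up to 0.0639). The FFPE 3 wk call of Cyp4f15 was lost without control 02 or 04 or furan 42, 43 or 44 (up to 0.111). Angptl4, a lipase inhibitor and PPAR target, did not pass (0.42 ± 0.23, 0.26 ± 0.18 and 0.06 ± 0.21).

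Markers of cells and zones were read beside these results. Of 7 genes of hepatocytes around the central vein, 5 fell in frozen livers, 5 after 18 h of fixation and 2 after 3 wk. Their summed level was 12181 to 15204 CPM in control and 7462 to 7926 CPM in furan frozen livers, 7833 to 8692 against 5156 to 5858 CPM in FFPE 18 h pieces, and 7887 to 8670.3 against 5370.4 to 5978 CPM in FFPE 3 wk pieces. Of 6 genes of hepatocytes around the portal vein, 1 rose and 1 fell in frozen and 1 fell in FFPE 18 h pieces. Their summed level was also lower in furan, without overlap in frozen (4279 to 5554 CPM in control against 3599 to 3845 CPM) and FFPE 3 wk pieces (4665 to 5722 against 3992 to 4642.5 CPM). It overlapped in FFPE 18 h pieces (2647 to 3013 against 2330 to 2687 CPM). Of 8 hepatocyte genes 1 fell in each kind of piece, and of 7 sinusoidal endothelial genes 3, 1 and 0 fell. The endothelial sum was lower in furan without overlap in frozen (387 to 398 against 275 to 335 CPM) and FFPE 18 h pieces (355 to 393 against 267 to 308 CPM). In FFPE 3 wk pieces it overlapped (441 to 547 against 388 to 455 CPM). No marker of macrophages, stellate cells, cholangiocytes, T and NK cells, B cells, fat or muscle passed in any piece by edgeR, with at most 2 of a list at an unadjusted p under 0.05, and few of some lists were tested (2 of 7 fat cell markers, and 1 or 2 of 7 of muscle). Both fat cell markers tested in frozen livers, Fabp4 and Lipe, were at an unadjusted p under 0.05 and lower in every furan than in every control library (-0.43 ± 0.14 and -0.23 ± 0.10, adjusted p = 0.0765 and 0.138). In bulk tissue, fewer cells of a type and less RNA per cell cannot be told apart. The part of the lower pericentral, periportal and endothelial levels in the values of Acsl1, Acaa1b, Decr2 and the other members was not tested.

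The deposited counts summed to 33101755 to 58048387 in frozen, 16269854 to 22494012 in FFPE 18 h and 3666173 to 11780691 in FFPE 3 wk libraries, of which the 32 genes made up 1.12% to 1.38%, 0.964% to 1.88% and 0.930% to 1.42%. Rn45s took 0.129% to 0.520%, 6.42% to 37.3% and 4.85% to 13.2%. The shallow FFPE 3 wk libraries control 02 and furan 43 were the shallowest of their groups, and without them 0 members passed there by edgeR's quasi-likelihood test (8 at an unadjusted p under 0.05), with Acaa1b no longer passing (adjusted p = 0.157).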

How the data were processed

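Poly(A) RNA of frozen and FFPE pieces of mouse liver was sequenced on an Illumina instrument from unstranded libraries, per the labels. The deposited table holds whole-number counts per gene and library. The submitters' processing notes name CASAVA 1.8.2, STAR 2.3.0, featureCounts 1.4.4 and mm9; their order, settings and the handling of reads that fit several genes are not given in the sources used here. Of the count columns, 22 matched a labelled sample and 2 matched none and were not used, and frozen pieces of animals 03 and 42 had no column. Within a kind of piece replicates are separate animals, and p-values of furan against control measure the spread between them. The main fits of FFPE against frozen pieces and of the interaction took pieces of the same animals as independent libraries. Only their alternatives with the animal as a replicate block use the pairing.

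Each kind of piece was fitted on its own with edgeR 4.0.16 (filterByExpr, TMM scaling, quasi-likelihood test, R 4.3.3), with Benjamini-Hochberg adjustment over all genes tested and a threshold of 0.05. CPM are TMM-scaled within a fit, and the SE is the fold change over the root of the F statistic. FFPE and frozen control pieces were fitted likewise, as was the interaction of treatment and piece. The tests were tried on simulated data first. The labels name 1 liver as the source of same-numbered pieces, and over 9612 genes the deviations of frozen pieces from their group means correlated best with the FFPE pieces of the same animal in 6 of 6 animals (r from 0.397 to 0.502 for FFPE 18 h and 0.0886 to 0.253 for FFPE 3 wk). Alternatives were DESeq2 1.42.0, RLE scaling, other filters, robust dispersions, 1 model of all groups, thinned counts, libraries left out and the animal as a replicate block. Summed near-identical genes, totals without Rn45s, and the removal of shallow or Rn45s-rich libraries were chosen after seeing the data.

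Exon lengths and shared words came from GENCODE M21 (GRCm38) by symbol, and promoters from RefSeq (GRCm38.p6). No coordinates of mm9 are given. Exon lengths are unions over all transcripts of a gene, and shared words are those of its longest protein-coding transcript. The members and lists were chosen with earlier results of these data known. Values by library are given for members that passed in a furan comparison and for genes that stand for a role, and from each other list at most 4 genes with the smallest p in a comparison are named, with Ppara, Fgf21 and Angptl4 in any case. Some genes covered by this rule are not reported here.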

Additional observations from a re-analysis of the deposited data

Results flagged for a closer look

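Among the 128 groups of 4 FFPE libraries formed by the 32 genes, 7 held a library far from the other libraries of its group (Dixon's gap test), and chance gives about 1 in 20. In FFPE 18 h pieces, 3 control values belonged to animal 06, the library richest in Rn45s: Acot2 at 18.9862 CPM against 15.3 to 15.4 CPM, Acot4 at 58.195 CPM against 39.2 to 41.7 CPM, and Cpt2 lowest at 124.868 CPM against 152 to 156 CPM. For Acot4, animal 06 was the highest control in each kind of piece, so the order does not belong to that library only. Acsl1 in FFPE 18 h pieces of furan 41 was at 590.881 CPM against 439 to 459 CPM in the other furan animals, and that animal was also the highest furan value in frozen and FFPE 3 wk pieces. In FFPE 3 wk pieces Acot2 of control 03 was at 45.3999 CPM against 18.0 to 22.3 CPM, Bdh1 of furan 42 at 234.776 CPM against 216 to 218 CPM, and Cyp4a31 of furan 42 at 23.4502 CPM against 42.8 to 44.3 CPM. Control 03 and furan 42 held the highest levels of muscle markers (367 and 598 CPM), whose part in these values was not tested.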

How the results depend on the processing

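Of 4 members that passed in frozen livers, 1 did in 1 model of all 6 groups, and 1 to 5 did with 1 library left out. Of 6 in FFPE 18 h pieces, 1 passed in 1 model of all 6 groups, 1 in the 6 animals also used frozen (fewer samples), and 3 to 10 with 1 library left out. Against 1 in FFPE 3 wk pieces, 6 passed with DESeq2, 5 with no filter on low counts, 11 in 1 model of all 6 groups, 0 in the 6 animals, 0 without the 2 shallowest libraries (both by edgeR, with 11 and 8 at an unadjusted p under 0.05) and 0 to 3 with 1 library left out; the cause was not tested. The 1 model called 138, 225 and 2030 of all genes, against 2162, 1077 and 99, and DESeq2 called 2336, 1374 and 369. In FFPE 3 wk pieces 194 genes passed with no filter, 19 in the 6 animals and 12 without the 2 shallowest libraries. With 1 library left out, 864 to 1620, 633 to 1285 and 17 to 173 of all genes passed in frozen, FFPE 18 h and FFPE 3 wk pieces. With totals that omit Rn45s and no TMM factor, frozen livers gave 4 members, 2 higher and 2 lower, Acadm passing (0.25, adjusted p = 0.0380) and Acads not. The paired fit with the animal as a replicate block called 0 interactions among the members, and 25 and 17 members between kinds of piece, against 23 and 18. Of all genes, 9460 of 13382 and 2827 of 12911 differed between kinds of piece in that fit. Leaving out 1 library gave 0 to 0 members for the interactions, and 21 to 22 and 13 to 21 between kinds of piece. There 8111 to 9299 and 1978 to 4398 of all genes differed between kinds of piece. Among the recomputed furan values of the members and of some pathway genes, 2167 stayed on their side of the threshold, 162 lost the call, 64 gained it and 0 called values reversed. Of the 2167, 45 passed in neither fit and differed in sign. These counts pool values that passed in the main fit with values that did not. In frozen livers the calls of Acsl1, Decr2, Acads and Pdk4 held in 10, 14, 5 and 7 of 15 alternatives. With every library thinned to the shallowest total, 3666173 counts, 3, 5 and 1 members passed in frozen, FFPE 18 h and FFPE 3 wk pieces. Of all genes, 754, 726 and 107 passed there.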
